A study of Mus musculus with 16 samples.

Results

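The effect of lithium (Li) common to both genotypes was measured in hippocampal cultures of WT mice and of Shank3∆11(−/−) mice (KO), which lack the long isoforms of the postsynaptic scaffold protein Shank3. All 16 of the 16 libraries of the series entered it: 8 from cultures that received Li and 8 from cultures that received vehicle (Veh, water). Libraries were chosen by their treatment label, and each culture, given by its genotype and the number in the sample title, was a block of 1 Li and 1 Veh library. The comparison therefore rested on 8 pairs, 4 of WT (WT1 to WT4) and 4 of KO (KO1 to KO4). Groups are written WTVeh, WTLi, KOVeh and KOLi. WT mice were C57BL/6. For each dissociation the hippocampi of several newborn pups (P1 to 2 by the labels) were pooled, so a culture is a pool of animals and holds neurons together with glia and other cells of the tissue. Li was given at 0.1 mmol/l from the ninth day in vitro for 5 days, and RNA was taken on day 14. The labels carry a different day for each library, from 14 to 29, and the times given here are those of the study's methods. Sequencing batch 1 held the cultures of replicates 1 to 3, and batch 2 those of replicate 4.

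Li is a small cation used to treat bipolar disorder. In the cell it inhibits glycogen synthase kinase 3 (GSK3) by competing with magnesium, and it inhibits the phosphatases that recycle inositol. GSK3 marks beta-catenin for degradation, so its inhibition lets beta-catenin accumulate and act with TCF/LEF factors on Wnt target genes. GSK3 and calcium signals also act on CREB, the factor that binds the cAMP response element (CRE) in the promoters of many neuronal activity genes. Dividing cells of a hippocampal culture are mainly astrocytes, progenitors, microglia and vascular cells, since neurons do not divide.

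Total counts were 21073689 to 35188300 per Veh library, with a median of 23778370, and 16123067 to 30945644 per Li library, with a median of 19086907. The Li library was the shallower of the pair in 7 of 8 cultures, by a ratio of 0.717 to 0.969, and the deeper in KO3, by 1.15. Levels are given in CPM (counts of a gene relative to the library total), scaled between libraries, and differences as log2 of Li over Veh (logFC). Sums of cell type markers were not scaled between libraries. The labelled tissue held its defining cells: Map2, a dendritic protein of neurons, stood at 760 to 1280 CPM, Slc17a7, the vesicular transporter of glutamate neurons, at 611 to 1074 CPM, and Gfap, the intermediate filament of astrocytes, at 1243 to 5546 CPM. Shank3 itself stood at 169 to 267 CPM in the WT libraries and at 82.0 to 97.9 CPM in 6 KO libraries. The pair of libraries labelled KO replicate 2 stood at 159 and 162 CPM, near the lowest WT level. The comparison of Li with Veh within that culture does not use the genotype label, but each value given for KO alone does. Shank3 did not pass the test for Li, with a logFC of 0.01 (SE 0.035, n = 8 pairs, adjusted p = 0.937 by edgeR's quasi-likelihood test).

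No gene passed the threshold of the study, a Benjamini-Hochberg adjusted p under 0.01 with a fold above 1.2, in edgeR's quasi-likelihood test with culture as a block. The count was 0 of 14783 genes tested, a background of 0%. At an unadjusted p under 0.05 there were 2086 genes, 1202 higher in Li (8.13% of the genes tested) and 884 lower (5.98%). Under the same thresholds DESeq2 called 14 genes, all higher, and limma-voom 0. The typical difference was small, with a median absolute logFC of 0.0578, and 766 genes differed by more than 1.2-fold in either direction. By direction alone, 155 genes were higher in Li in 8 of 8 cultures (1.05%) and 141 were lower in 8 of 8 (0.954%). The named genes below are therefore mainly those with the smallest p in each direction and leading members of each list. "Higher" and "lower" describe values, and none of them passed the threshold.

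Of the genes that were higher in Li, 1 had an adjusted p under 0.05. Netrin 1 (Ntn1, chr11:68209364-68400823, minus strand, GRCm38.p6), a secreted guidance cue for axons, was at 12.7 CPM at the lowest, 31.4 at the median and 88.0 at the highest in Veh, and at 14.6, 36.6 and 110 CPM in Li. The ranges overlapped widely because cultures differed from each other far more than Li differed from Veh. Within cultures, Ntn1 was higher in Li in 8 of 8, by 0.20 in WT1, 0.37 in WT2, 0.31 in WT3, 0.32 in WT4, 0.19 in KO1, 0.32 in KO2, 0.32 in KO3 and 0.25 in KO4 on the log2 scale. Its logFC was 0.29 (SE 0.038, adjusted p = 0.0144 by edgeR's quasi-likelihood test). It was chosen for having the smallest p of all genes tested. Leaving out 1 culture at a time kept its logFC between 0.28 and 0.31 and took its adjusted p from 0.00727 without WT1 to 0.231 without WT4. Without KO2, whose Shank3 level stood near WT, the logFC of Ntn1 was 0.29 (adjusted p = 0.138), and 0 genes were called. In sequencing batch 1 alone its adjusted p was 0.581, with culture as a random effect in limma-voom 0.515, and with the experiment number in place of culture as the block in edgeR 0.991.

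A further 5 genes had an adjusted p between 0.05 and 0.1 by edgeR's quasi-likelihood test, and all of them were higher in Li in 8 of 8 cultures. Nes encodes nestin, the intermediate filament of neural progenitors and reactive glia. It stood at 46.4, 176 and 378 CPM (lowest, median and highest) in Veh and at 63.4, 202 and 474 CPM in Li, with a logFC of 0.25 (SE 0.041, adjusted p = 0.0612). Its within-culture differences ran from 0.07 in KO1 to 0.45 in KO3. Wls, the carrier that takes Wnt proteins to the cell surface, stood at 65.3, 131 and 207 CPM in Veh and at 83.6, 148 and 243 CPM in Li (logFC 0.22, SE 0.037, adjusted p = 0.0716). Pgm5, a protein of adherens junctions, had a logFC of 0.33 (SE 0.050, adjusted p = 0.0545), Ajuba, an adaptor of junctions and of Hippo signalling, 0.37 (SE 0.064, adjusted p = 0.0718), and Scube3, a secreted glycoprotein, 0.36 (SE 0.062, adjusted p = 0.0718). Levels of these last genes were low, with medians of 24.9, 21.05 and 16.7 CPM in Veh and 31.9, 25.2 and 19.8 CPM in Li. Among those that followed were Igfbp2 and Bmp6. Igfbp2, a binding protein for insulin-like growth factors, was higher in 7 of 8 cultures (logFC 0.29, SE 0.052, adjusted p = 0.104), with a median of 662 CPM in Veh and 876 CPM in Li. Bmp6, a ligand of the BMP family, was higher in 8 of 8 (logFC 0.29, SE 0.053, adjusted p = 0.104).

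**Figure D1:**
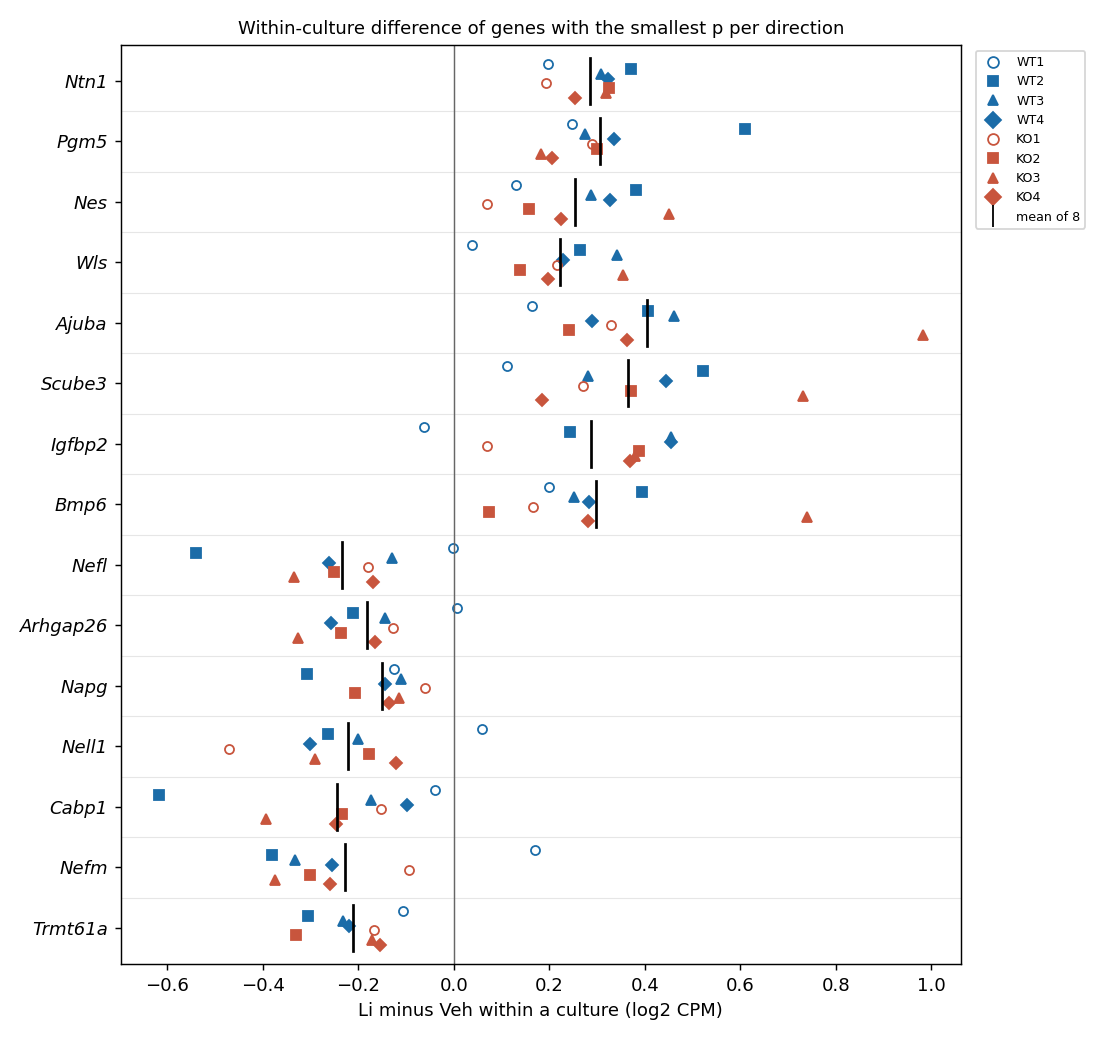
Log2 difference of Li over Veh within each of the 8 cultures (x axis) for the genes with the smallest p in each direction (y axis); open circles are replicate 1, filled squares replicate 2, triangles replicate 3 and diamonds replicate 4, blue WT and red KO, and the vertical bar is the mean of 8 cultures. Of the 16 genes, 15 are shown. Ntn1 lies to the right of 0 in every culture, between 0.19 and 0.37, and Nefl lies at or to the left of 0 in every culture.

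Among the 8 lower genes with the smallest p were Nefl, Nefm and Napg, of the neuronal cytoskeleton and of vesicle release. The 8 also held Arhgap26 (logFC -0.18), Nell1 (-0.22) and Trmt61a (-0.21), and a shared theme was not tested. Nefl, the light chain of neurofilaments (chr14:68083863-68089095, plus strand), stood at 312, 400 and 495 CPM (lowest, median and highest) in Veh and at 222, 363 and 437 CPM in Li. The groups overlapped, and the culture differences ran from 0.00 in WT1 to -0.54 in WT2, all of them below 0. Its logFC was -0.23 (SE 0.046, adjusted p = 0.112 by edgeR's quasi-likelihood test). Nefm, the medium chain, had a logFC of -0.23 and was lower in 7 of 8 cultures. The annotated spans of Nefl and Nefm overlap on opposite strands (Nefm from 68082590 to 68124846). Whether reads were counted by strand is not known here, so those in the overlap cannot be assigned with certainty. Napg, a partner of the SNARE disassembly machinery, was lower in 8 of 8 cultures, from 158, 182 and 227 CPM in Veh to 127, 168 and 210 CPM in Li (logFC -0.15, SE 0.032, adjusted p = 0.117). Cabp1, a neuronal calcium-binding protein, had a logFC of -0.24 (SE 0.053, adjusted p = 0.120).

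**Figure D2:**
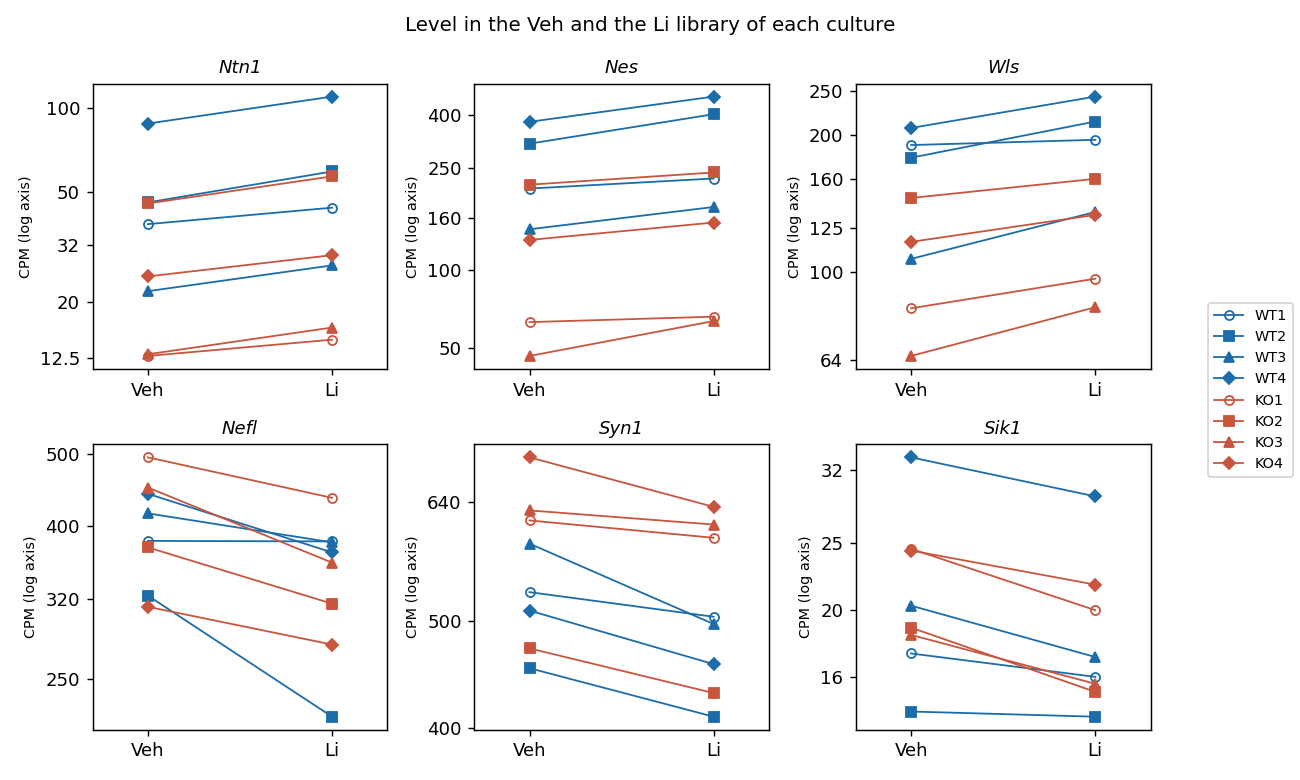
Level in CPM (y axis, log scale) in the Veh and Li library of each culture (x axis), with a line joining the libraries of a culture; blue WT, red KO, open circles replicate 1, filled squares, triangles and diamonds replicates 2, 3 and 4. Levels of 1 gene spread over several-fold between cultures (Ntn1 from 12.7 to 88.0 CPM in Veh), and the lines slope slightly.

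The design also asked whether Li acted alike in both genotypes. In WT alone 0 genes passed the threshold (1449 at an unadjusted p under 0.05, smallest adjusted p 0.238 by edgeR's quasi-likelihood test), and in KO alone 0 (966 at an unadjusted p under 0.05, smallest adjusted p 0.0979). For the difference of the Li effect, KO minus WT, 0 genes of 14783 passed, a background of 0%, with 422 at an unadjusted p under 0.05. All 16 genes with the smallest p in the comparison over both genotypes (8 higher and 8 lower) had the same sign in WT and KO. Their differences between genotypes reached 0.11 in size, and the smallest unadjusted p among them was 0.196. The choice by the effect over both genotypes favours genes that moved alike, so these values are no separate evidence of likeness. Over all genes, the mean WT and mean KO differences lay on the same side of 0 for 9063 of 14783. Ntn1 had a logFC of 0.30 (SE 0.053) in WT and 0.28 (SE 0.058) in KO, with a difference of -0.02 (SE 0.079). Nefl had -0.23 (SE 0.067) in both. These values do not show that the genotypes respond alike.

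Likeness between cultures was described by the correlation of the within-culture differences across the 14783 genes, which are not independent replicates. Over the 28 pairs of cultures r ran from -0.129 to 0.210 with a median of 0.0422. The 13 pairs with a culture of replicate 1 lay between -0.129 and 0.0149, and the 15 pairs among replicates 2 to 4 between -0.0112 and 0.210, with a median of 0.137. WT1 and KO1 thus stood apart from the other 6 cultures in how their Li library differed from their Veh library. The pairing of the KO1 libraries is itself uncertain, as given under the processing of the data. The mean WT and mean KO differences correlated with r = 0.219, with 9063 of 14783 genes on the same side of 0. They share no library but may share experiments.

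**Figure D3:**
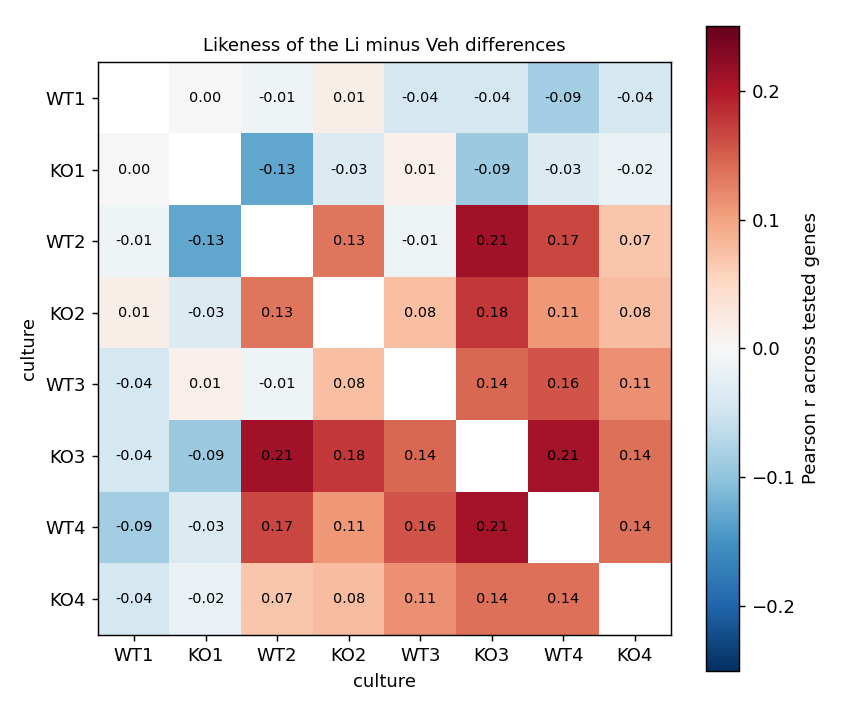
Pearson correlation across 14783 genes of the Li minus Veh difference between each pair of cultures (both axes list the 8 cultures, colour gives r). Pairs that include WT1 or KO1 do not exceed 0.0149, and pairs among replicates 2 to 4 reach 0.210.

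Because the replicate 1 cultures stood apart, counts are also given without them. This is 1 of 4 fits that each leave out 1 replicate number, added after the data were seen. Replicate 1 was set aside by the same Li minus Veh differences that the fit tests. Leaving it out narrows their spread, so the adjusted p-values without it are too small to take at face value. Without replicate 1, 73 of 14856 genes were called, a background of 0.491%, 69 higher and 4 lower in Li by edgeR's quasi-likelihood test. In the other fits, without replicate 2, 3 or 4, the count was 0. All 73 had the same sign in the comparison over 8 cultures, and 72 had an unadjusted p under 0.05 there, from libraries that are for the most part the same. The smallest adjusted p belonged to Igfbp2 (logFC 0.38, adjusted p = 9.04e-04), followed by Nefm at 0.00193. Col5a2 (0.29), Csf1 (0.41), Eln (0.36), F2r (0.39), Igfbp3 (0.30), Palld (0.47) and Thbs1 (0.58) came next at the same adjusted p, 0.0025. They encode a collagen chain, a growth factor of microglia, elastin, a thrombin receptor, a binding protein for insulin-like growth factors, an actin-binding protein and thrombospondin 1. Ntn1 (0.31), Nes (0.30), Top2a (0.38) and Ccnd1 (0.38) were each at 0.00397. The 4 genes that were lower were Nefm (-0.32), Nefl (-0.28), Rgs8 (-0.29), a regulator of G protein signalling, and Grp (-0.58), a neuropeptide. Unadjusted p under 0.05 was then reached by 1582 genes that were higher (10.6%) and 1436 that were lower (9.67%).

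Gene groups were described by 43 lists, counted as members at an unadjusted p under 0.05 in each direction beside the backgrounds of 8.13% higher and 5.98% lower, and by their median logFC beside 0.00033 over all genes. Each list is also given over the 12 fits that left out a culture or a replicate number. The share over all genes, both directions together, changed between these fits too. It ran from 8.33% without replicate 4 to 20.3% without replicate 1, beside 14.1% as fitted. A change of a list count between fits is thus in part a change over all genes. The matrix and the cell cycle were on the higher side, and synaptic and activity-regulated genes on the lower.

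Mitosis genes were higher: 24 of 50 reached an unadjusted p under 0.05 and 0 did so on the lower side, with a median logFC of 0.20. With a culture or number left out, from 12 to 40 of 50 were higher and 0 lower, and the median ran from 0.16 to 0.28. The count was 40 without replicate 1 and 37 without WT1, but 21 without replicate 3, 15 without replicate 2 and 12 without replicate 4. The list median was -0.14 in WT1 and -0.02 in KO1 and between 0.18 and 0.45 in the other 6 cultures. KO3, whose Li library was the deeper of its pair, was the lowest of these 6 (0.18), and the part of depth was not tested. Ckap2, a protein of the mitotic spindle, stood at 5.88, 14.1 and 26.04 CPM (lowest, median and highest) in Veh and at 7.74, 18.97 and 36.5 CPM in Li and was higher in 8 of 8 cultures (logFC 0.31, SE 0.065, adjusted p = 0.117 by edgeR's quasi-likelihood test). Tpx2, which activates Aurora A on the spindle, was also higher in 8 of 8 (0.29, SE 0.063). Top2a, the topoisomerase of dividing cells, was higher in 6 of 8 (0.28, adjusted p = 0.133), with both exceptions in replicate 1. Plk1 (0.22, SE 0.104) and Kif20a (0.19, SE 0.072), a mitotic kinase and a kinesin of cytokinesis, had adjusted p of 0.359 and 0.240. DNA replication genes had 10 higher and 0 lower of 35 (median 0.12), and from 4 without replicate 4, 5 without replicate 2 and 6 without WT4 or KO4 to 15 without replicate 1 or WT1, among them Rrm1, a subunit of ribonucleotide reductase (0.22), and Rpa2, which coats single-stranded DNA (0.23). Of the G1 regulators 6 were higher and 0 lower of 20, with 10 without replicate 1 or KO1, 3 without replicate 3, WT2 or WT4, and 2 without replicate 2, replicate 4 or KO4, led by Ccnd1, cyclin D1 (0.29, SE 0.065, adjusted p = 0.118), which was higher in 7 of 8 cultures.

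Promoters of the mitosis list are shown because most share the same letters. Many genes of late cell cycle carry the cell cycle homology region (CHR), TTTGAA, near their start, where the DREAM complex binds. RefSeq windows of 250 bases before to 50 after the gene start (GRCm38.p6) were found for 11341 of the tested genes. TTTGAA, on either strand, was in 33 of 43 windows of the mitosis list (76.7%), in 11.5% of all windows and in 10.3% of those of the DNA replication list. Over all genes at an unadjusted p under 0.05 the share was 14.3% of the higher and 10.4% of the lower. The stretches below run 5′ to 3′ on the strand of the gene and end before its start. Capitals mark TTTGAA, and the genes are the list members with the smallest p that carry it in this orientation upstream of the start.
Ckap2, chr8:22185868-22185967, minus strand: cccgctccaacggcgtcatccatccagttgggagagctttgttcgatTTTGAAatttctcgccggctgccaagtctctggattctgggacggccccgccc
Top2a, chr11:99024316-99024415, minus strand: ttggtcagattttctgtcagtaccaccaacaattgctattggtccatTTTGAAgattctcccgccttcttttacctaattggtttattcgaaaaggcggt
Ect2, chr3:27153940-27154039, minus strand: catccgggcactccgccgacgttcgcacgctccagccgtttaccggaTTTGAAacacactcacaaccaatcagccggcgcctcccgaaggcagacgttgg
Cdc20, chr4:118437344-118437408, minus strand: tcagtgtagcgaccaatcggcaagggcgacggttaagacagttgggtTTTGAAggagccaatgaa
Ect2, a protein of cytokinesis, had a logFC of 0.37 (adjusted p = 0.153 by edgeR's quasi-likelihood test), and Cdc20, which switches on the anaphase-promoting complex, 0.23 (adjusted p = 0.168). The TTTGAA of these promoters is a description of sequence and was not tested as a site.

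**Figure D4:**
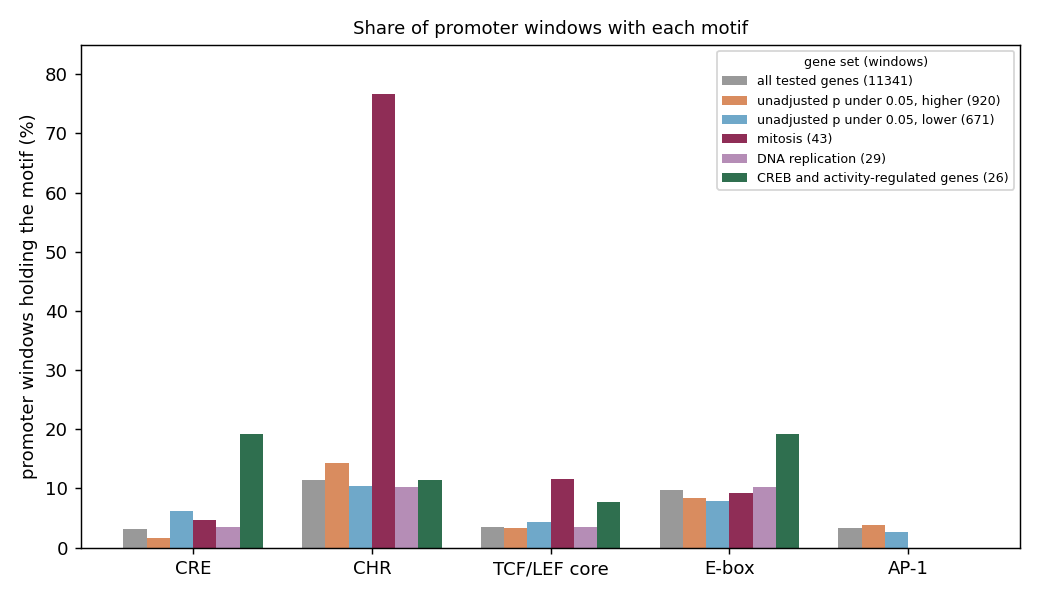
Share of promoter windows (y axis, percent) with each motif (x axis) on either strand for all tested genes, for genes at an unadjusted p under 0.05 higher or lower in Li, and for gene lists. TTTGAA is in 76.7% of the mitosis windows beside 11.5% of all, and TGACGTCA in 19.2% of the windows of the CREB list beside 3.21% of all.

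Extracellular matrix (ECM) genes were described by 5 lists, which did not all go one way. Of the ECM glycoproteins and proteoglycans 21 of 40 were higher and 2 lower at an unadjusted p under 0.05 (median 0.17), of the ECM enzymes 16 and 1 of 25 (median 0.10) and of the collagens 13 and 1 of 28 (median 0.097). Basement membrane genes had 4 higher and 0 lower of 12 (median 0.065), and genes of the perineuronal net and brain matrix 0 higher and 1 lower of 9 (median -0.031). Without replicate 4 the higher counts were 14 of 40 glycoproteins, 6 of 25 enzymes and 8 of 28 collagens, and without WT4 10 of the enzymes, while the fits that left out a culture or number reached 23, 17 and 15 at the most. Basement membrane genes had 2 higher without replicate 2, WT2 or KO2. The glycoprotein median was -0.08 in WT1, 0.07 in KO1 and 0.15 to 0.21 in the other 6 cultures. Plod2, which hydroxylates collagen lysines for cross-linking, was higher in 8 of 8 cultures (logFC 0.25, SE 0.050, adjusted p = 0.112 by edgeR's quasi-likelihood test). Fmod, fibromodulin, which binds collagen fibrils, had 0.31 (SE 0.061, adjusted p = 0.112). The members that went the other way among the glycoproteins were Tgfbi (-0.38) and Nov (-0.15). Among the collagens Col5a2 (0.22, adjusted p = 0.127) and Col4a1 of the basement membrane (0.14, adjusted p = 0.138) were higher in 7 of 8 cultures. The chains of type I collagen were nearer to 0, with 0.10 for Col1a1 (adjusted p = 0.354) and 0.04 for Col1a2 (adjusted p = 0.748). Col4a3 had a logFC of 0.99 (SE 0.317, adjusted p = 0.193) at a mean of 0.388 CPM in Veh and 0.739 CPM in Li, with 1 culture, WT1, at 2.97, so its size rests on few reads.

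Interferon response genes had a median logFC of 0.28, and 23 of 23 lay above 0, with 13 higher and 0 lower at an unadjusted p under 0.05. The count was 4 without WT4, 4 without replicate 3 and 2 without replicate 4, where the median was 0.16, and 16 without replicate 1. Cultures differed widely in this list, with medians from -0.27 in KO1 and -0.04 in WT1 to 0.74 in WT4 and 0.85 in KO3. Rsad2, an antiviral enzyme induced by interferon, was higher in 8 of 8 cultures, from 0.727, 2.62 and 5.43 CPM (lowest, median and highest) in Veh to 1.64, 3.59 and 7.91 CPM in Li (logFC 0.69, SE 0.149, adjusted p = 0.117 by edgeR's quasi-likelihood test). Ifit2, of the same response, was higher in 8 of 8 as well (0.28, SE 0.079). Isg15, a ubiquitin-like interferon target, was higher in 4 of 8 (0.26, SE 0.214, adjusted p = 0.618). Of the chemokines and NF-kappaB targets 5 were higher and 1 lower of 21, with 2 higher without WT4, replicate 3 or replicate 4, 3 without WT2, 9 without KO1 and 10 without replicate 1.

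Activity-regulated genes of the CREB list were lower: 19 of 35 at an unadjusted p under 0.05 and 0 higher, with 31 below 0 and a median logFC of -0.14. The list median was 0.18 in WT1 and between -0.01 and -0.39 in the other 7 cultures, with -0.39 in KO1 and -0.36 in KO3 at the low end. The lower count was 20 without replicate 1, 10 without KO1, 8 without KO3 and 7 without replicate 3, and the median ran from -0.19 to -0.10 with a culture or number left out. Sik1, a kinase induced by cAMP that restrains CREB coactivators, stood at 14.3, 19.6 and 33.3 CPM (lowest, median and highest) in Veh and at 14.0, 16.6 and 29.3 CPM in Li. It was lower in 8 of 8 cultures, by between 0.02 in WT2 and 0.31 in KO2 on the log2 scale (logFC -0.20, SE 0.047, adjusted p = 0.135 by edgeR's quasi-likelihood test). Sst, the neuropeptide somatostatin of interneurons, went from 18.7, 51.1 and 138 CPM in Veh to 15.6, 43.0 and 130 CPM in Li (-0.17, SE 0.044, adjusted p = 0.138). Bdnf, the neurotrophin released with activity, had -0.24 (SE 0.085, adjusted p = 0.223) and was lower in 7 of 8 cultures, WT1 being the exception at 0.36. Scg2 and Pcsk1, a granin and a prohormone convertase of dense-core vesicles, had -0.24 and -0.18.

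The CRE, TGACGTCA, which reads the same on both strands, was in 5 of 26 windows of the CREB list (19.2%) and in 3.21% of all windows, in 6.26% of those of the genes lower at an unadjusted p under 0.05 and in 1.63% of those of the higher. The stretches are shown because their genes are the lower members that carry it, and capitals mark TGACGTCA.
Sst, chr16:23890845-23890939, minus strand: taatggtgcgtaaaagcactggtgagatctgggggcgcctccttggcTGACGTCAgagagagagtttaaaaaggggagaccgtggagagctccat
Pcsk1, chr13:75089732-75089833, plus strand: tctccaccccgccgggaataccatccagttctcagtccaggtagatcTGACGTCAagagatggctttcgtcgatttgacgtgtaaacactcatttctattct
Scg2, chr1:79440040-79440141, minus strand: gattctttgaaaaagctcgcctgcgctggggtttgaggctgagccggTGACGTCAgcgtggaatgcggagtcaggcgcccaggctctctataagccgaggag
The other CRE carriers of the list were Dusp1, an inhibitor of MAP kinases (logFC 0.11), and Btg2, an antiproliferative gene (0.03). Neither reached an unadjusted p under 0.05 (0.159 and 0.562 by edgeR's quasi-likelihood test), so their direction is not known. The list was written around CREB, and its share of CRE is not independent of that choice.

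Synaptic genes lay on the lower side by small amounts. Of the presynaptic genes 15 of 29 were lower and 0 higher at an unadjusted p under 0.05 (median -0.096, 28 below 0), and of the postsynaptic genes 8 of 32 and 0 (median -0.057). With a culture or number left out, the presynaptic count ran from 8 without replicate 3 to 21 without replicate 1, and the postsynaptic count from 3 without replicate 3, 4 without replicate 4 and 5 without WT4 to 13 without WT2 and 15 without replicate 1. The presynaptic median was -0.02 in WT1, 0.0025 in KO1 and between -0.08 and -0.16 in the other 6 cultures. Syn1, synapsin 1 of the vesicle surface, stood at 453, 559 and 703 CPM (lowest, median and highest) in Veh and at 409, 500 and 634 CPM in Li and was lower in 8 of 8 cultures (logFC -0.13, SE 0.031, adjusted p = 0.135 by edgeR's quasi-likelihood test). Among the vesicle SNAREs, Vamp1 was lower in 7 of 8 (-0.21, SE 0.050) and Vamp2 in 8 of 8 (-0.15, SE 0.037). Dlg4, the scaffold PSD-95 (-0.12, SE 0.033), Dlgap3, its partner between PSD-95 and Shank proteins (-0.16, SE 0.042), and Gad2, an enzyme of GABA synthesis (-0.14, SE 0.034), were lower in 7 of 8. Voltage-gated channels had 4 of 23 lower and 0 higher, from 2 without replicate 3 to 7 without WT2 and 8 without replicate 1 or WT1. GABA receptors had 2 lower and 1 higher of 15, with 0 to 4 lower when a culture or number was left out (0 without WT4 or replicate 4, 1 without WT3 or KO2, 4 without WT1 or replicate 1).

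**Figure D5:**
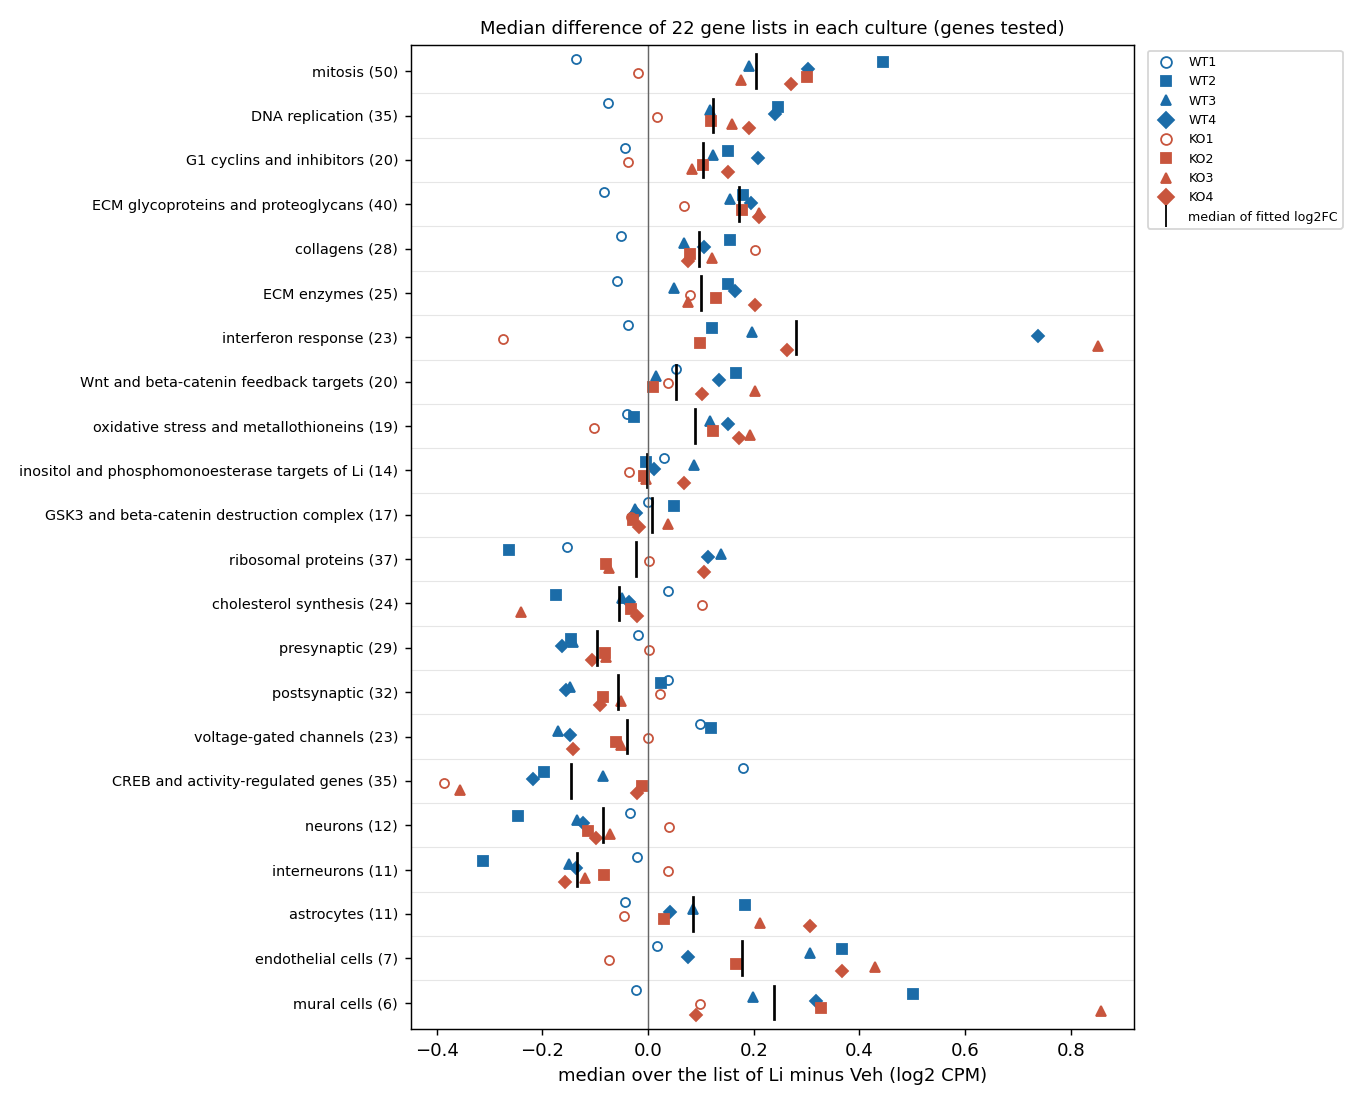
Median log2 difference of Li over Veh of each gene list within each of the 8 cultures (x axis, one line of symbols per list on the y axis; open circles replicate 1, filled squares, triangles and diamonds replicates 2, 3 and 4, blue WT, red KO, bar the median of the fitted logFC). For mitosis the open circles lie at -0.14 and -0.02 and the other 6 between 0.18 and 0.45, and for the presynaptic list the highest culture is KO1 at 0.0025.

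The counts of these lists also depended on the block, and so did the share over all genes at an unadjusted p under 0.05. That share was 3.19% with the experiment number as the block in edgeR (223 higher, 248 lower). It was 9.85% with culture as a random effect in limma-voom (741 higher, 715 lower). With the experiment number in place of culture as the block, edgeR gave 19 of 50 mitosis genes, 1 of 40 glycoproteins, 3 of 25 enzymes, 1 of 28 collagens and 1 of 23 interferon genes higher, and 0 of 35 CREB genes and 8 of 29 presynaptic genes lower, at an unadjusted p under 0.05. With culture as a random effect, limma-voom gave 22, 8, 5, 6 and 8 higher and 4 and 9 lower in the same order. Medians stayed near their values above, at 0.20 for mitosis, 0.17 for the glycoproteins and -0.16 for the CREB list with the experiment number as the block.

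GSK3 and the inositol enzymes, the direct targets of Li, differed little between Li and Veh at the RNA level. The kinases themselves had a logFC of -0.06 (SE 0.031, adjusted p = 0.402) for Gsk3a and -0.01 (SE 0.034, adjusted p = 0.916) for Gsk3b by edgeR's quasi-likelihood test, and Ctnnb1, beta-catenin, 0.03 (SE 0.029). In the list of GSK3 and the destruction complex 0 of 17 genes were higher and 1 lower at an unadjusted p under 0.05. Of the inositol and phosphomonoesterase targets 3 were higher and 1 lower of 14. Impa1, Impa2 and Inpp1, phosphatases of the inositol cycle that Li inhibits, had -0.0013, -0.02 and -0.02. For Wnt feedback targets 7 of 20 were higher and 0 lower (median 0.053), and the list median was above 0 in 8 of 8 cultures. Without replicate 4 the count was 3 higher and 1 lower. It was 0 higher with the experiment number as the block in edgeR and 1 higher with culture as a random effect in limma-voom. Axin2, the usual readout of beta-catenin, was higher in 7 of 8 cultures, with 0.10 (SE 0.045, adjusted p = 0.334). CTTTGAA, the TCF/LEF core, which contains TTTGAA, was in 0 of 11 promoter windows of the Wnt list and in 3.57% of all windows. Creb1 had a logFC of 0.02 and Sp1 one of 0.10.

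Markers of some cell types moved with these groups. In bulk RNA, fewer cells of a type and less RNA per cell cannot be told apart. The sums below are CPM of the library total without scaling factors. Those factors were higher for Li than for Veh in each culture (1.008 beside 0.991 in WT3), so unscaled sums stand slightly higher in Li. The 12 neuronal markers all lay below 0, with 7 lower at an unadjusted p under 0.05, and their summed level was 4330 to 6794 CPM in Veh and 3948 to 6562 CPM in Li, lower in 7 of 8 cultures with a ratio of 0.893 to 1.02. The neuronal count was 4 without replicate 3. Markers of excitatory neurons had 1 of 11 lower and 0 higher, with a median logFC of -0.064 (-0.085 in WT and -0.018 in KO). Interneuron markers had 5 of 11 lower, 3 without replicate 2 and 8 without replicate 1 (sum 520 to 1295 CPM in Veh and 468 to 1219 CPM in Li). On the higher side, the sum of endothelial markers was 22.4 to 117 CPM in Veh and 29.8 to 139 CPM in Li, higher in 8 of 8 cultures by a ratio of 1.07 to 1.33, with Kdr, a VEGF receptor (0.29), and Slco1a4, a transporter of brain vessels (0.34), among its members. Mural cell markers summed to 46.1 to 258 CPM and 67.1 to 345 CPM, higher in 7 of 8. Progenitor markers summed to 535 to 2881 CPM and 681 to 3539 CPM, higher in 7 of 8, and astrocyte markers to 4763 to 9491 CPM and 5433 to 10630 CPM, higher in 6 of 8. Meningeal markers had 1 higher and 1 lower of 10 (median logFC 0.023). Microglial markers had 0 of 12 at an unadjusted p under 0.05 in either direction, and their medians ran from -1.39 in KO1 and -0.60 in WT1 to 0.55 in KO4. The part of these cell types in the mitosis, ECM, interferon and synaptic values was not tested, and neither was that of depth.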

How the data were processed

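RNA of 16 culture libraries was sequenced. The authors deposited counts, whole numbers of reads per gene with no normalization, in tables of 54532 genes. The submitters' processing notes name HISAT2 2.0.5, featureCounts 1.5.0-p3 and GRCm38.p6. The annotation release and strand setting are not given in the sources used here. A spreadsheet had turned 14 gene names into dates, and genes were matched by identifier.

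Genes of 10 biotypes (33134) were filtered by filterByExpr (minimum count 15, minimum proportion 0.25), which left 14783. Counts were scaled by TMM and fitted in R 4.3.3 with edgeR 4.0.16 (quasi-likelihood test), with culture as a fixed block and treatment as the term over all libraries. A second fit with a Li term per genotype gave WT, KO and their difference. The thresholds were those of the study (fold above 1.2, Benjamini-Hochberg adjusted p under 0.01), which used limma with group and experiment. Adjusted p-values and logFC in the text come from these fits unless another tool is named. Values per culture are differences of log2 CPM with a prior count of 2. DESeq2 1.42.0 and limma 3.58.1 were alternatives, with other scalings, filters and omitted cultures. The fits were checked on simulated data.

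The labels give Veh and Li libraries the same numbers but do not say that they share a culture. Deviations from the group means correlated between same-numbered Veh and Li libraries by 0.590 to 0.859 in WT and 0.411 to 0.889 in KO. Between libraries of different numbers they correlated by -0.507 to 0.463 in WT and -0.586 to 0.566 in KO. The numbers were taken as pairs. KOLi1 correlated more with KOVeh3 (0.566) than with KOVeh1 (0.411), so the check does not settle the pair KO1. The p-values measure the spread of the Li minus Veh differences over these 8 cultures. The study's methods name experimental batches, and a WT and a KO culture of the same number may share a batch. The 8 cultures may thus not be 8 independent treatments. The spread of levels between cultures is taken up by the block. Precision depends on 16123067 to 35188300 counts per library.

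The members and the 44 lists (30 of pathways and 14 of cell types, 847 genes) were chosen with earlier results of these data known. Of the list for red blood cells, 0 genes were tested. The named genes were, as fewer than 5 genes were called, the 8 with the smallest p per direction, the 2 leading members of each list, a fixed set (Shank3, targets of Li and selected mitosis and collagen genes) and the 5 per direction with the smallest p for a genotype difference, 120 in all, of which some are not reported here. Eln, Thbs1, Csf1, F2r, Igfbp3, Palld, Rgs8, Grp, Top2a, Tgfbi, Isg15, Vamp2, Map2, Gfap and the promoter genes Ect2, Cdc20, Scg2, Pcsk1 and Btg2 lie outside this rule and were named after their values were seen. Promoter windows and coordinates are from RefSeq and the deposited tables, both on GRCm38.p6.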

Additional observations from a re-analysis of the deposited data

Results flagged for a closer look

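Of 120 named genes and 43 lists, 14 and 3 had 1 culture far from the other 7 by the gap to its nearest neighbour relative to the range (above 0.526). For 1 of the genes the value is not reported here. Chance gives this in about 1 in 20 groups. On the log2 scale, Li minus Veh, WT1 stood alone for Col4a3 (2.97), Col5a2 (-0.19) and Dlgap3 (0.15). WT2 stood alone for Cspg4, a proteoglycan of oligodendrocyte precursors (1.43), Pgm5 (0.61) and Igf1r (0.44), and for the medians of nuclear oxidative phosphorylation genes (-0.34) and of insulin, mTOR and autophagy genes (0.11). KO1 stood alone for Lamb2 (-0.17), Lamp2 (-0.14) and the median of meningeal markers (0.36). KO3 stood alone for Ajuba (0.98), Ifit2 (0.93) and Fmod (0.85), and KO4 for Gja1 (0.35) and Gm14434 (-3.83).

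Gm14434 was also the 1 gene whose Li effect differed between genotypes at an adjusted p under 0.05, by -6.75 on the log2 scale, KO minus WT (adjusted p = 0.0153 by edgeR's quasi-likelihood test). It was above 0 only in replicate 4, at 15.2 CPM in KOVeh and 0.995 CPM in KOLi, and at 1.29 CPM in WTVeh and 9.56 CPM in WTLi, so the value rests on 1 culture of each genotype.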

How the results depend on the processing

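The number of genes called over both genotypes was 0 as fitted, 14 with DESeq2, 103 with no filter on counts (98 higher and 5 lower of 23555 genes), 1 at an adjusted p under 0.05 and 6 under 0.1 without a fold minimum. With cultures or replicate numbers left out it ran from 0 to 73. It was 5 without WT replicate 1 and 73 without replicate 1, and 0 in each other case. With the replicate block by experiment number, after the study's terms, it was 0 (471 genes at an unadjusted p under 0.05), and with no block it was 0 (42 genes). The pairing by culture, taken from the correlations of same-numbered libraries, gave 2086 such genes. For sequencing batch 1 alone, which is the same fit as without replicate 4, the count was 0. Sequencing batch 2 holds 1 culture per genotype, so replicate 4 cannot be told apart from that batch. Over these settings the logFC of Ntn1 ran from 0.27 to 0.31 and its adjusted p from 4.47e-05 with DESeq2 to 0.581 in sequencing batch 1 alone, 0.991 with the replicate block by experiment number and 0.99998 with no block. The number of genes that differed between genotypes was 0, and 1 at an adjusted p under 0.05 or with limma-voom, and from 0 to 1 with a culture left out (1 without WT replicate 1 or without WT replicate 2). The median of the circadian clock list, -0.031, was 0.0042 for sequencing batch 1 alone and -0.026 to 0.011 with a culture or number left out.

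The logFC of 14 named genes changed sign under at least 1 setting. Gm14434 was 0.19 with DESeq2 and 0.11 with culture as a random effect in limma-voom, which also gave Gm46404 -0.020 and Tyrobp 0.13. Gm46404 was -0.0059 with the replicate block in limma-voom. Ptcd2 was -0.0027 with the replicate block in edgeR, -0.0059 with no block, -0.0049 with every biotype and -0.034 in sequencing batch 1, where Suv39h2 was 0.046 and Impa1 0.0046. Impa1 was also 0.0021 with DESeq2 and with RLE scaling, 0.00054 with no block, 0.0088 with no scaling factors, 0.00028 with no filter and 0.0030 with a minimum count of 50. With cultures or numbers left out, values ran from -0.107 to 0.0096 for 1700001L19Rik, -0.015 to 0.034 for Creb1, -0.074 to 0.329 for Gm46404, -0.034 to 0.011 for Gsk3b, -0.163 to 0.037 for Hist1h2be, -0.026 to 0.026 for Impa1, -0.125 to 0.069 for Impa2, -0.067 to 0.0093 for Inpp1, -0.043 to 0.043 for Ptcd2, -0.022 to 0.043 for Shank3, -0.093 to 0.054 for Suv39h2, -0.75 to 0.030 for Trem2 and -0.365 to 0.047 for Tyrobp. The cause of these changes was not tested.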

Other observations

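Metabolic and stress genes outside the groups above differed by small amounts, with counts at an unadjusted p under 0.05. Of the oxidative stress and metallothionein genes 6 of 19 were higher in Li and 0 lower (median logFC 0.090), with 2 higher without replicate 4, 3 without replicate 3 or KO4, 4 without WT4 and 10 without replicate 1, among them Prdx6, a peroxiredoxin (0.17), and Gclc, the first enzyme of glutathione synthesis (0.12). Cholesterol synthesis genes had 23 of 24 below 0 and 2 lower at that p (median -0.054), from 0 without WT4, KO2, KO3 or replicate 3 and 1 without WT2, replicate 2 or replicate 4 to 8 without KO1 and 12 without replicate 1. Nuclear genes of oxidative phosphorylation had 6 of 33 lower and 0 higher (median -0.057), with 0 lower without WT2, KO3 or replicate 2, 1 without KO2 or replicate 3 and 2 without WT1, and ribosomal protein genes 1 of 37 lower. Heat shock genes went both ways, with Cryab at 0.22 and Hspa1a at -0.27.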
